A study of Homo sapiens with 5 samples.

Results

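Replication-dependent histone mRNAs were followed through an RNA immunoprecipitation of PSF (the protein of the SFPQ gene, an RNA-binding protein of the nucleus) from LTAD cells, a human prostate cancer line grown in medium with charcoal-stripped serum. Members were chosen by symbol alone: H1-1 to H1-6, or H2AC, H2BC, H3C or H4C followed by digits. The table of 25702 genes held 67 such symbols, and leaving out the pseudogene H2BC20P left 66 members, of which 6 were H1, 16 H2A, 17 H2B, 13 H3 and 14 H4 genes. Of the 66, 55 lie in the HIST1 cluster and 11 in the HIST2 cluster. H2AW, H2BU1, H3-4 and H4-16, the genes of the small HIST3 and HIST4 loci, carry symbols that the rule does not take.

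The 5 libraries were 2 PSF-RIP libraries of cells given 5 µM No.10-3, a compound whose sources give just this code name, 1 PSF-RIP library of cells given DMSO vehicle, and 2 inputs (RNA of the lysate before immunoprecipitation), 1 from each treatment. The input columns do not tell which treatment is which, so both inputs served as 1 reference, and their numbers 1 and 2 are names only. All groups are of the same cell line and medium, and an immunoprecipitation with a control antibody was not analysed here. Nothing in the labels says whether the 2 No.10-3 libraries came from separate cultures, so the spread between them may be technical.

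Replication-dependent histones package the DNA made in S phase. Their genes have no introns, lie in clusters and often face each other in H2A/H2B pairs, and most of their mRNAs end in a conserved stem-loop, bound by SLBP and cut by a complex that the U7 snRNP guides, in place of a poly(A) tail. These mRNAs are made in S phase and decay quickly when replication stops. Some members are also known to give polyadenylated mRNAs, which cells keep outside S phase and make more of when they differentiate. H1 is the linker histone that binds nucleosomes where DNA enters and leaves, while H2A and H2B form dimers that join the H3-H4 tetramer in the nucleosome core.

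The DNA just upstream of 5 start sites is shown for the most counted member, H2BC21, for the 3 members called in the comparison of PSF-RIP with input (H2BC7, H2BC4 and H2AC15) and, for contrast, for the H4 gene H4C5. Sequences are from RefSeq (GRCh38.p14), written 5′ to 3′ and ending at the base before a start site. H2BC21, H2BC7, H2BC4 and H2AC15 each lie in an interval shared with a gene read the other way, printed whole, from start site to start site, for H2BC4 and H2AC15 and in part for H2BC21 and H2BC7. The intervals printed whole end before the starts of H2AC6 and H2BC15, while H2BC4 and H2AC15 are read from the minus strand. Capitals mark the octamer ATTTGCAT or its reverse complement ATGCAAAT, the CCAAT box or its reverse complement ATTGG, and TATAAA on the strand printed. In the H2BC4 line TATAAA is thus on the strand of H2AC6.
H2BC21 (chr1:149886683-149886812, minus strand): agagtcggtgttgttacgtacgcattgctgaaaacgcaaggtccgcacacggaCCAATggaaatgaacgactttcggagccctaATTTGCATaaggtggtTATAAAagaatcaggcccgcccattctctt
H2BC7 (chr6:26199386-26199515, plus strand): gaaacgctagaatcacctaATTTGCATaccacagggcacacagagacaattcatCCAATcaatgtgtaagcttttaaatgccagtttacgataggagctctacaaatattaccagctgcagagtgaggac
H2BC4 and H2AC6 (chr6:26123927-26124171, plus strand): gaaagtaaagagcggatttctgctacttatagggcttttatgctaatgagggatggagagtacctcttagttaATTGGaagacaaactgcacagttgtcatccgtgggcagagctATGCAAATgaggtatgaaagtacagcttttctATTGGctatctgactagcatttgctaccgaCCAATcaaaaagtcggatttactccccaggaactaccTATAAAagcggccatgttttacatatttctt
H2AC15 and H2BC15 (chr6:27838376-27838568, plus strand): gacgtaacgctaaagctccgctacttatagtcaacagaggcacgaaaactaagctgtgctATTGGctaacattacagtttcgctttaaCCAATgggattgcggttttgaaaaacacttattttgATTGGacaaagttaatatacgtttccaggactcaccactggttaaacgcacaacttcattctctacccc
H4C5 (chr6:26204480-26204609, plus strand): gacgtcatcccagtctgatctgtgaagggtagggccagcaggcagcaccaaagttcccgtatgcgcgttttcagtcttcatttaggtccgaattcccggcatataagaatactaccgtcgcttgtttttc
The octamer, known as the binding site of the factor OCT1 (POU2F1) in H2B promoters, lay within 250 bases upstream of the start in 26 of the 61 members with a promoter in the table (42.6%), against 1.66% of 27305 genes. By class it was in 14 of 17 H2B and 11 of 15 H2A promoters, 1 of 11 H3 promoters, and none of 6 H1 or 12 H4 promoters. CCAAT or ATTGG was in 52 of 61 members (85.2%) against 33.0% of all genes, and H4 genes held it in 3 of 12. TATAAA on the gene's strand was in 36 of 61 members (59.0%) against 7.17% of all genes. Facing genes share the same bases, and a match is a description of letters only.

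Counts over all genes ranged from 1519362 to 3368252 in the PSF-RIP libraries and from 3083063 to 4010376 in the inputs. The luminal prostate markers took 0.258% to 0.304% of PSF-RIP counts and 0.0554% to 0.0560% of input counts. Of 11 markers of basal, stromal, blood and endothelial cells, CD3E, KRT5, PTPRC and TP63 were at 0. Over the 5 libraries COL1A1 had 431 counts, VWF 69, ACTA2 13, KRT14 5, COL3A1 4, and COL1A2 and PECAM1 1 each. The kinds of library differed in make-up. The abundant noncoding RNAs 7SK, 7SL, RPPH1 and RMRP took 6.70% and 2.63% of counts in the No.10-3 PSF-RIP libraries and 7.81% in the vehicle PSF-RIP library, against 51.7% and 55.0% in the inputs. Nuclear protein-coding genes took 73.6% and 82.1% of the No.10-3 and 76.1% of the vehicle PSF-RIP counts, against 16.4% and 15.9% of input counts. Levels are therefore given as TMM-scaled CPM, read counts scaled to a common library total after edgeR's trimmed-mean scaling, which sets the typical gene to no change between libraries.

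Histone mRNAs made up a small part of every library, and whether their share was higher or lower in PSF-RIP than in input depended on what they were set against. The 66 members summed to 1819 and 2882 counts in the No.10-3 PSF-RIP libraries and 1830 in the vehicle PSF-RIP library, against 956 and 1116 in the inputs. As a share of all counts this was 0.120% (exact 95% interval 0.114% to 0.125%) and 0.0856% (0.0825% to 0.0887%) with No.10-3 and 0.0839% (0.0801% to 0.0878%) with vehicle, against 0.0238% (0.0224% to 0.0254%) and 0.0362% (0.0341% to 0.0384%) in the inputs. All 3 PSF-RIP libraries lay above both inputs, at a mean of 0.0964% ± 0.0202 (SD, n = 3) against 0.0300% ± 0.00874 (SD, n = 2).

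As a share of nuclear protein-coding counts the members took 0.163% and 0.104% with No.10-3 and 0.110% with vehicle, against 0.145% and 0.227% in the inputs. Here the groups overlapped and the order of the means was turned round, 0.126% ± 0.0321 in PSF-RIP (SD, n = 3) against 0.186% ± 0.0581 in input (SD, n = 2). The intervals cover counting error only, since reads without molecular identifiers are not independent molecules.

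**Figure D1:**
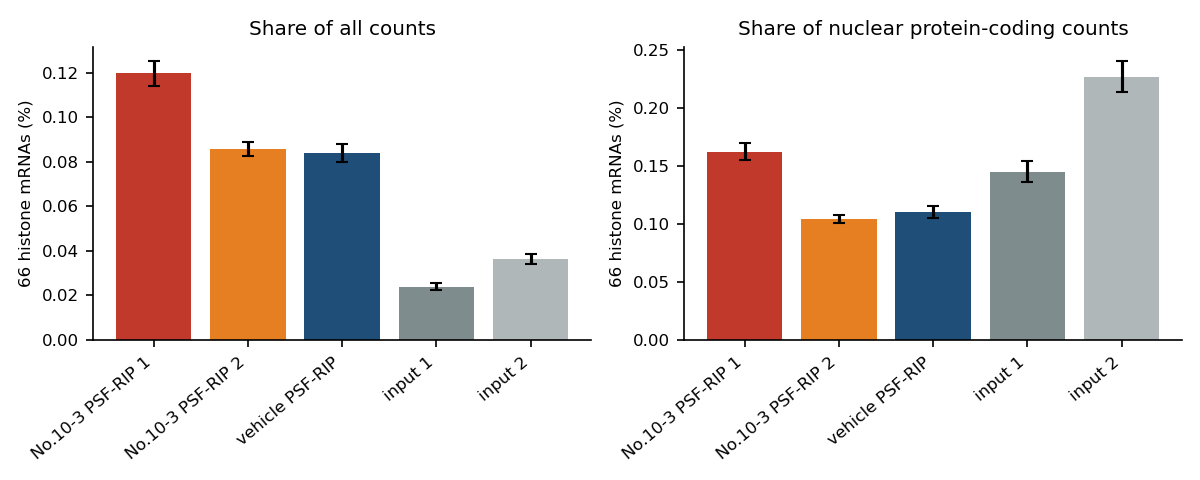
Share of the 66 histone mRNAs in each of the 5 libraries, as a percent of all counts (left) and of nuclear protein-coding counts (right), with exact 95% binomial intervals as bars. On the left the PSF-RIP libraries, at 0.120%, 0.0856% and 0.0839%, all stand above the inputs; on the right input library 2, at 0.227%, is highest and the groups overlap.

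Detection was uneven. Of the 66 members, 17 had no count in any library, 16 had 1 to 19 counts over the 5 libraries together and 33 had 20 or more. A count of 0 allows up to 3 counts, or 1.97 and 0.891 CPM in the No.10-3 PSF-RIP libraries, 1.38 CPM in the vehicle PSF-RIP library and 0.748 and 0.973 CPM in the inputs. Among those at 0 throughout were H3C14 and H3C15, H4C14 and H4C15, and H2AC19, whose near-identical copy H2AC18 had 1 count. How reads that fit several copies were counted is not given in the sources used here, so levels of such copies are uncertain. In RefSeq 11 members overlap another gene, among them H2BC12 with H4C9, H3C4 with H2AC7 and H2BC18 with FCGR1A, and their counts may hold the neighbour's reads. The testis genes H1-6, H2AC1 and H2BC1 had 6 counts, 0 counts and 0 counts.

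The counts were concentrated in a few genes. H2BC21, H2BC12, H1-2, H1-4, H2BC5 and H4C5 together held 59.5% and 67.0% of member counts in the No.10-3 and 51.4% in the vehicle PSF-RIP libraries, against 50.4% and 56.0% in the inputs. Per length the order differed, since H2BC21 is annotated with 2223 bases and the median member with 461. As CPM per kilobase, H2BC12 averaged 145 in PSF-RIP against 46.7 in input, H4C5 135 against 47.7, H1-2 129 against 24.4, H4C8 86.0 against 34.1, and H2BC21 82.6 against 28.9. These levels are not TMM-scaled and so carry the difference in library make-up given above.

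PSF-RIP was compared with input to see whether histone mRNAs were recovered with PSF more or less than the typical gene. On the TMM scale no member was called higher and 3 were called lower, H2BC7, H2AC15 and H2BC4, of 35 members that passed the filter of a mean of at least 1 CPM (edgeR's quasi-likelihood test, Benjamini-Hochberg adjusted p under 0.05). Of all 13321 genes tested, 10% were called higher, 10.4% lower and 20.4% either way, so the members' 3 of 35 lies near the background for lower calls. The log2 change was below 0 in 28 of 35 members, against 47.1% of all genes, and its median was -0.82 against 0.083 over all genes; without input library 2 it was -0.37. Both PSF-RIP treatments entered as 1 group, so any effect of No.10-3 counts as spread here. A member could pass the filter through 1 kind of library alone, so these counts describe the 35 and not all 66. H1-5, H2AC14 and H4C11 passed through PSF-RIP, and H4C9 through input.

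The sign depends on the scaling. With library totals in place of TMM, 34 of 35 members lay above 0 with a median of 1.52 and 30 were called higher, but the median of all genes moved by 2.34 to 2.42, and 11613 genes were called higher and 49 lower. Library totals move all genes by about the same amount, so the members' place among them is not a second observation. Without overlap between the 3 PSF-RIP libraries and both inputs, 2 members were higher (30.1% of all genes) on the TMM scale. Another 13 were lower (25.1% of all genes, and 245 of 616 nuclear protein-coding non-member genes under 1000 bases). The higher ones were H1-4 and H1-5, of which H1-5 had to differ to pass the filter and supports nothing. H4C9, among the lower ones, passed the filter through input and supports nothing either. By library totals 30 members were higher without overlap (88.7% of all genes) and none lower (0.571%).

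Gene length moved with this result. Nuclear protein-coding genes under 1000 bases that are no members had a median log2 change of -0.51 on the TMM scale, 67.2% of them lay below 0, and 145 of 616 were called lower. Removing the trend of each library on gene length brought the members' median to -0.081, with 1 member called higher (H1-4) and 1 lower (H2BC21), and the 3 calls named above were lost. The 8 tested members of 700 bases or more had a median of -0.42 on the TMM scale, and the 27 shorter ones -0.88. The part of length in the result was not tested beyond these values.

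**Figure D2:**
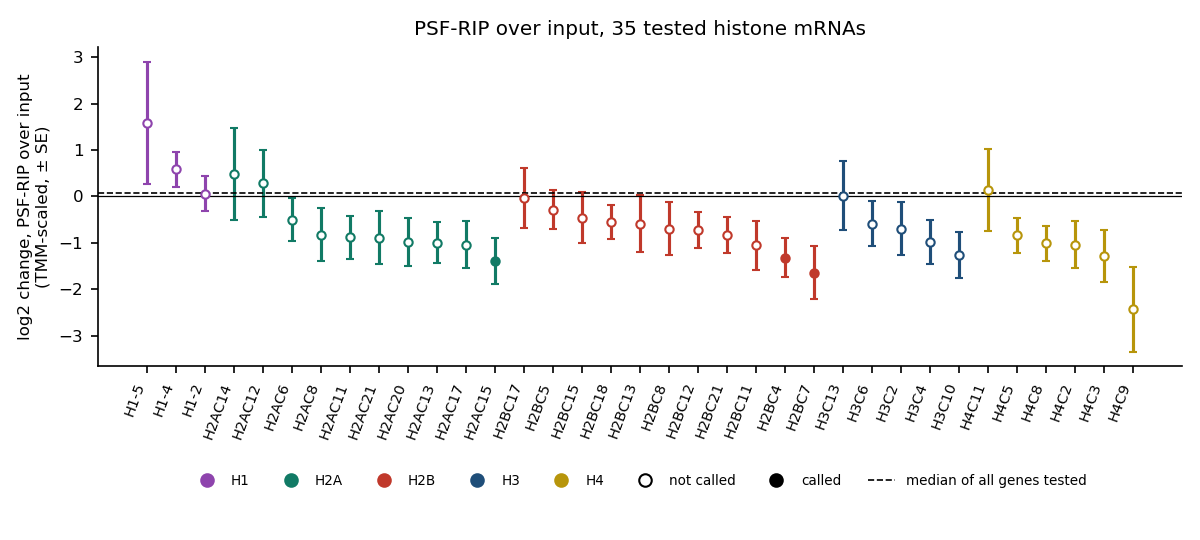
Log2 change of PSF-RIP (3 libraries) over input (2 libraries) on the TMM scale, with the standard error, for the 35 tested members ordered by class. Filled points passed the test; the 3 H1 genes stand above 0 (H1-2, at 0.058, is at -0.012 with a minimum of 5 CPM, and H1-5 passed the filter through PSF-RIP alone), all 11 H2B genes lie below 0 (47.1% of all genes), and the dashed line is the median of all genes tested at 0.083. With library totals in place of TMM, 34 of the 35 lie above 0.

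Of the linker histone genes 3 were tested and none passed the test. H1-2 had 68.8 and 45.0 TMM-scaled CPM in the No.10-3 PSF-RIP libraries and 35.5 in the vehicle PSF-RIP library, against 35.4 and 60.5 in the inputs, so the groups overlapped. Its log2 change was 0.058 (SE 0.38, adjusted p = 0.93), and the sign was negative, at -0.012, with a minimum of 5 CPM. H1-4 had 34.4 and 30.2 with No.10-3 and 38.4 with vehicle in PSF-RIP, against 19.3 and 26.7 in the inputs. Every PSF-RIP library lay above both inputs, with a log2 change of 0.59 (SE 0.38, adjusted p = 0.28). H1-5, which passed the filter through PSF-RIP alone, rested on 18 counts in all, with a log2 change of 1.59 (SE 1.32, adjusted p = 0.40). H1 genes together took 15.4% and 18.5% of member counts with No.10-3 and 17.2% with vehicle in PSF-RIP, against 9.41% and 8.87% in the inputs. That share needs no scaling between libraries, and the PSF-RIP libraries did not overlap with the inputs in it. In the same shares of H2A, H2B, H3 and H4 genes the PSF-RIP libraries and inputs overlapped. The H1 share was not tested. Both H1-2 and H1-4 are longer, at 732 and 785 bases, than most core histone genes.

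Among H2A genes, 1 of 10 tested was called lower, which is no more than the 10.4% of all genes, and the median log2 change was -0.89. H2AC15 had 4.44 and 3.61 TMM-scaled CPM with No.10-3 and 5.24 with vehicle in PSF-RIP, against 15.5 and 7.11 in the inputs. All PSF-RIP libraries lay below both inputs, by -1.39 (SE 0.49, adjusted p = 0.047), and by library totals the sign was reversed, at 0.94. H2AC6, a gene with a known polyadenylated form, had 35.1 and 14.4 with No.10-3 and 15.3 with vehicle in PSF-RIP, against 14.2 and 47.1 in the inputs, a log2 change of -0.50 (SE 0.47, adjusted p = 0.46). H2AC20, in the HIST2 cluster, had 20.3 and 4.91 with No.10-3 and 15.02 with vehicle in PSF-RIP, against 11.6 and 40.9 in the inputs, a log2 change of -0.98 (SE 0.52, adjusted p = 0.18). For both genes the 2 inputs differed by more than the group means did, and both groups overlapped. The remaining tested H2A genes ran from -1.04 for H2AC17 to 0.48 for H2AC14, whose counts were 4 and 9 with No.10-3, 8 with vehicle, and 3 and 0 in the inputs. H2AC14 passed the filter through PSF-RIP alone, so its value supports nothing.

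All 11 tested H2B genes lay below 0 on the TMM scale, with a median of -0.69, and 2 were called lower. Among all genes 47.1% lay below 0 and 10.4% were called lower, and among the coding genes under 1000 bases given above 67.2% and 145 of 616. H2BC7 had 5.92 and 2.02 TMM-scaled CPM with No.10-3 and 2.38 with vehicle in PSF-RIP, against 6.44 and 14.2 in the inputs. Its log2 change was -1.65 (SE 0.57, adjusted p = 0.043), with the PSF-RIP libraries all below the inputs and 66 counts in all. H2BC4 had 18.1 and 8.37 with No.10-3 and 12.6 with vehicle in PSF-RIP, against 25.1 and 39.1 in the inputs. These groups did not overlap either, and the log2 change was -1.32 (SE 0.41, adjusted p = 0.026). By library totals the changes of H2BC7 and H2BC4 were reversed in sign, at 0.69 and 1.02. Leaving out input library 2 or the vehicle PSF-RIP library ended all 3 calls, H2AC15's included: without input library 2 the log2 changes were -0.996 for H2BC7, -1.81 for H2AC15 and -0.97 for H2BC4, and without the vehicle library -1.48, -1.55 and -1.32. The call of H2AC15 was also lost without any other single library, at -0.69 to -1.39, and that of H2BC7 without No.10-3 replicate 2, at -1.34.

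The most counted H2B genes, H2BC21, H2BC12 and H2BC5, are known to give polyadenylated forms. H2BC21 had 125.0 and 105.4 TMM-scaled CPM with No.10-3 and 58.2 with vehicle in PSF-RIP, against 124.9 and 219.6 in the inputs, a log2 change of -0.84 (SE 0.39, adjusted p = 0.12). H2BC12 had 91.7 and 54.6 with No.10-3 and 46.0 with vehicle in PSF-RIP, against 70.8 and 139.6 in the inputs, a log2 change of -0.71 (SE 0.39, adjusted p = 0.18). H2BC5 had 44.4 and 27.4 with No.10-3 and 17.6 with vehicle in PSF-RIP, against 20.6 and 52.5 in the inputs, a log2 change of -0.28 (SE 0.43, adjusted p = 0.67). In each of these the first No.10-3 library reached into the range of the inputs and the vehicle library was lowest of the 5. Library totals reversed the sign of these log2 changes, to 1.52 for H2BC21, 1.63 for H2BC12 and 2.06 for H2BC5.

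H3 and H4 genes, which make the core tetramer, gave no call. H3C10 had 10.4 and 4.48 TMM-scaled CPM with No.10-3 and 3.81 with vehicle in PSF-RIP, against 12.9 and 16.0 in the inputs, with no overlap and a log2 change of -1.27 (SE 0.49, adjusted p = 0.066). H3C6 had 5.92 and 8.81 with No.10-3 and 6.44 with vehicle in PSF-RIP, against 7.08 and 15.1 in the inputs, with overlap and a log2 change of -0.59 (SE 0.48, adjusted p = 0.40). Of 5 tested H3 genes 4 lay below 0, with a median of -0.70. H4C5 had 36.2 and 16.2 with No.10-3 and 28.6 with vehicle in PSF-RIP, against 39.3 and 56.9 in the inputs, a log2 change of -0.84 (SE 0.38, adjusted p = 0.11). H4C8 had 18.9 and 13.0 with No.10-3 and 18.8 with vehicle in PSF-RIP, against 29.0 and 39.1 in the inputs, a log2 change of -1.01 (SE 0.38, adjusted p = 0.059). Both H4 genes were lower in every PSF-RIP library than in either input, as were 5 of the 6 tested H4 genes, whose median was -1.03. Lower in this way were 25.1% of all genes and 245 of the 616 coding non-member genes under 1000 bases. The median length of H4 genes was 369 bases. H4C9, among the 5, passed the filter through input library 1 and supports nothing. Its counts were 2 and 4 with No.10-3 and 1 with vehicle in PSF-RIP, against 7 and 1 in the inputs. By library totals H3C10, H4C5 and H4C8 stood at 1.07, 1.49 and 1.33, reversed in sign.

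**Figure D3:**
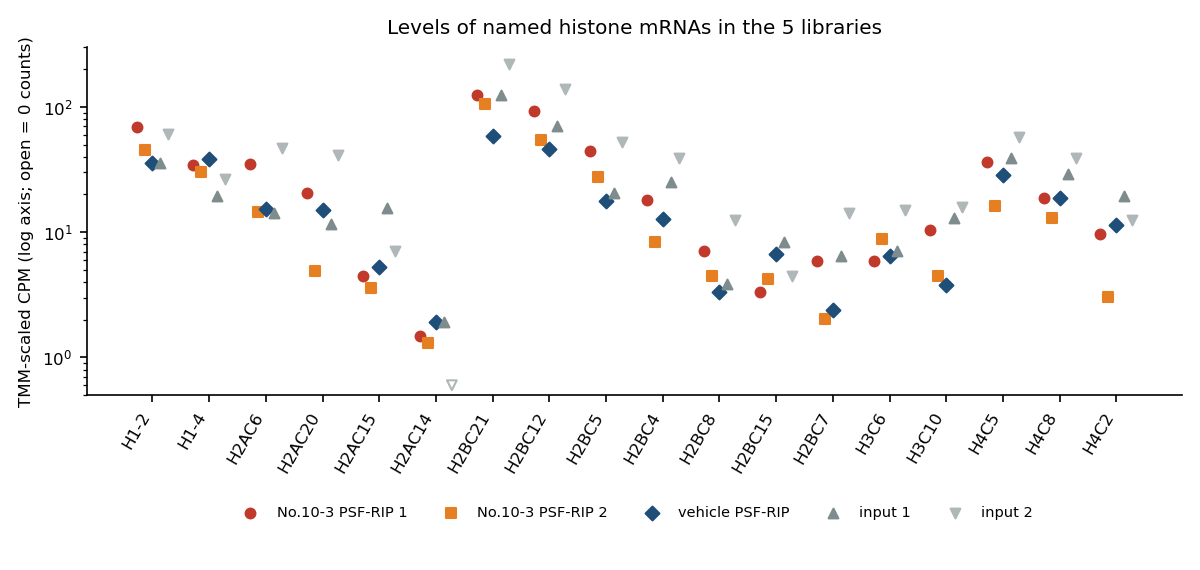
TMM-scaled CPM (log axis) of the 18 named histone mRNAs in the 5 libraries, grouped by class; an open symbol marks 0 counts. H2BC21, at 125.0 and 105.4 with No.10-3 and 58.2 with vehicle against 124.9 and 219.6 in the inputs, is the most abundant, and input library 2 is above input library 1 for most genes. On library totals the PSF-RIP points would stand higher relative to the inputs.

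The comparison the series is named for, No.10-3 against vehicle within PSF-RIP, had 2 libraries against 1. Of the 35 members that passed the filter here, 34 of them tested over input too, none was called, and neither was any of the 13766 genes tested (0%; edgeR's quasi-likelihood test): 563 genes had an unadjusted p under 0.05, where 688.3 are what the threshold alone would give, and the lowest adjusted p was 0.14. The lowest unadjusted p of a member was 0.097. The vehicle library is assumed to vary like the treated pair, which leaves 1 residual degree of freedom, and the members' standard errors ran from 0.57 to 1.22 on the log2 scale. No change passed the test at this spread, and changes of that size or larger may have gone undetected with these libraries. A difference between PSF-RIP libraries can reflect the amount of an RNA in the cells as well as its recovery, and these cannot be told apart here. In bulk RNA, fewer S-phase cells and less histone mRNA per cell cannot be told apart either.

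Members were described by whether both No.10-3 libraries lay on the same side of the vehicle library, which enters both differences. Of 35 tested, 7 were above vehicle in both (33.1% of all genes), 9 below in both (32.6% of all genes) and 19 were split, shares that do not exceed the background. The median log2 change was -0.18 against 0.036 over all genes, made up of 0.26 in replicate 1 and -0.46 in replicate 2. The treated libraries thus differed in the sign of this median. Of the 5 classes H4 had the widest gap: its median difference was 0.34 for replicate 1, while replicate 2 gave -1.37.

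The 6 members with known polyadenylated forms, a list drawn up with earlier results of these data known, had a median above 0 and the other members one below 0. H2BC21 was higher than vehicle by 1.10 and 0.84 log2 units in replicates 1 and 2 (fitted change 0.98, SE 0.61, unadjusted p = 0.11, adjusted p = 0.998). H2BC5 was higher by 1.31 and 0.62 (fitted change 1.01, SE 0.61, unadjusted p = 0.097, adjusted p = 0.998). H2BC12 stood at 0.99 and 0.24, and H1-2 at 0.95 and 0.33, with fitted changes of 0.66 (SE 0.58) and 0.67 (SE 0.58). In these 4 genes both treated libraries lay above the vehicle library, as in 33.1% of all genes. H2BC21 and H2BC5 were also picked as highest with No.10-3, so the agreement of their replicates supports nothing. H2AC6 was split, at 1.18 and -0.086, and so was H2BC4, at 0.51 and -0.58. The list's median was 0.67, against -0.26 for the other 29 tested members. Of these, 3 were above vehicle in both libraries (10.3%, against 33.1% of all genes). Another 9 were below in both (31.0%, near the 32.6% of all genes). None of these changes passed the test, and the difference between the lists was not tested.

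Measured within the family, which needs no scaling, the 6 members made up 57.0% (exact 95% interval 54.6% to 59.2%) and 61.3% (59.5% to 63.1%) of member counts with No.10-3, against 42.5% (40.2% to 44.8%) with vehicle. The inputs, 1 of each treatment, had 47.3% and 56.3%. The intervals cover counting error only and not the spread between libraries, which 1 vehicle library cannot show. The 2 inputs, which cannot be assigned to a treatment, lay further apart than their own intervals. The list was drawn up with earlier results of these data known, so its higher share with No.10-3 supports nothing. The list's 6 genes have a median length of 785.5 bases against 459.5 for the other members, and the 8 tested members of 700 bases or more had a median change of 0.33 against -0.23 for the 27 shorter ones. The part of length in this difference was not tested.

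**Figure D4:**
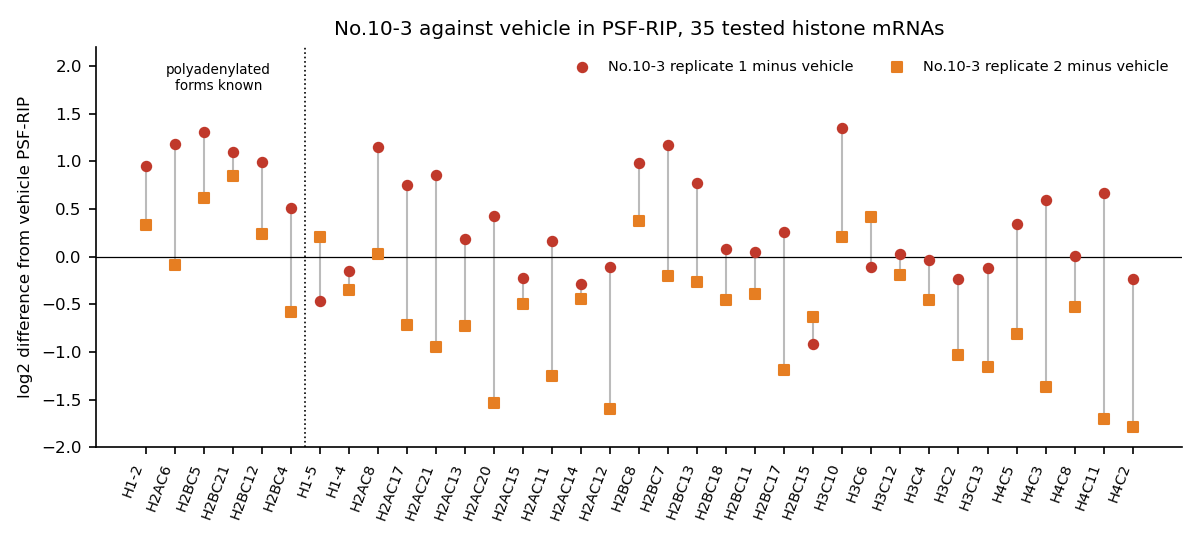
Log2 difference of each No.10-3 PSF-RIP library from the vehicle PSF-RIP library (prior count 2, TMM scale) for the 35 tested members, with the 6 genes of known polyadenylated forms left of the dotted line. H1-2, H2BC5, H2BC21 and H2BC12 lie above 0 in both libraries (33.1% of all genes), while 19 of the 35 members are split between the libraries. H2BC21 and H2BC5 were also picked as highest with No.10-3, so their agreement supports nothing. No gene passed the test.

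Outside that list 3 members lay above vehicle in both libraries (10.3% of those tested, against 33.1% of all genes). H3C10 had differences of 1.35 and 0.20 and a fitted change of 0.89 (SE 0.76), above that of H1-2 and H2BC12 in the list. H2BC8, at 0.99 and 0.37, had 7.03 and 4.48 TMM-scaled CPM with No.10-3 against 3.34 with vehicle, and its facing gene H2AC8 stood at 1.15 and 0.024. H4C2 lay furthest below by the fit, with 9.62 and 3.03 TMM-scaled CPM with No.10-3 against 11.4 with vehicle, differences of -0.24 and -1.78 (fitted change -0.95, SE 0.67, adjusted p = 0.998). H2BC15 had 3.33 and 4.19 against 6.67, differences of -0.92 and -0.63 (fitted change -0.80, SE 0.73). Its facing gene H2AC15 lay at -0.22 and -0.50, and H2AC14 at -0.29 and -0.44. H2BC8, H4C2, H2BC15 and H2AC14, and in the list H2BC21 and H2BC5, were named by the smaller of their 2 differences from vehicle. That both replicates lay on the same side in these genes was therefore set by the choice and supports nothing. H2AC14 had 4 and 9 counts with No.10-3 against 8 with vehicle. None of these genes passed the test, and neither did H2AC15.

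RefSeq places 11 pairs of members head to head within 500 bases, 10 of them an H2A with an H2B gene, and 8 pairs had both members tested. The facing genes did not always lie on the same side of vehicle. H2BC21 had a fitted change of 0.98 and H2AC20, which starts 235 bases away, -0.32, with -1.54 in replicate 2. H2AC6 and H2BC4, whose 245 shared bases are printed above, had 0.67 and 0.029. H2BC8 and H2AC8 were alike, at 0.74 and 0.69. In the same pairs the log2 changes over input were -0.84 and -0.98 for H2BC21 and H2AC20, and -0.50 and -1.32 for H2AC6 and H2BC4.

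Genes that act on histone mRNAs were set beside the members from lists chosen with earlier results known. Of 12 tested genes of 3′ processing, 2 rose over input and none fell on the TMM scale: SYMPK, the symplekin scaffold of the cleavage complex, by 1.72 (adjusted p = 0.012) and SRRT, a partner of the cap-binding complex, by 1.33 (adjusted p = 0.017). SLBP itself had a log2 change of 0.13 (adjusted p = 0.87). Of 9 genes of histone mRNA translation and decay, CTIF, a translation factor of the cap-binding complex, and the helicase UPF1 rose, by 1.67 and 1.55, and LSM1, of the ring that binds oligouridylated tails, fell by 2.72 (adjusted p = 0.023, 0.0084 and 3.3e-05). Of 7 transcription genes, HINFP, which binds H4 promoters, rose by 1.58 (adjusted p = 0.033), and NPAT, of the histone locus body, had -1.15 (adjusted p = 0.057). Of all genes 10% were called higher and 10.4% lower.

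Of 12 tested chaperones, HIRA, which deposits H3.3, rose over input by 1.39 (adjusted p = 0.014), while ASF1A, an H3-H4 chaperone, fell by 2.62 and NAP1L1, which binds H2A-H2B, fell by 1.56 (adjusted p = 0.0020 and 0.0073). Of 12 histone genes listed as replication-independent, among them H2AX, which is also known to give a stem-loop mRNA in S phase, none rose and 2 fell, the H3.3 gene H3-3A by 1.93 and the centromeric CENPA by 1.48 (adjusted p = 0.033 and 0.025). H3-3A has processed copies in the genome, and its level, at most 11.6 TMM-scaled CPM, is uncertain. The second H3.3 gene, H3-3B, stood at -0.49 (adjusted p = 0.33), H2AZ1 at -0.42 (0.41) and H2AX at 0.99 (0.069). Of 26 DNA replication mRNAs 4 rose, CDC45, MCM3, MCM7 and POLE, by 1.26 to 2.26, and GINS1 fell by 1.42. Beside these counts, 10% of all genes were called higher and 10.4% lower, and the lists as such were not tested. These directions are relative to the typical gene: by library totals ASF1A and LSM1 still lay below 0, at -0.24 and -0.36, without passing the test, while NAP1L1, CENPA, H3-3A and GINS1 were reversed in sign, at 0.82, 0.87, 0.42 and 0.94, none past the test, and NPAT was called higher, at 1.23 (adjusted p = 0.024).

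With No.10-3 no gene of these lists passed the test. Replication-independent histones lay above vehicle in both treated libraries in 10 of 12 genes, with a median log2 change of 0.72 (0.68 in each replicate). DNA replication mRNAs lay below vehicle in both libraries in 17 of 26 genes, with a median of -0.48 (-0.51 and -0.50). Among all genes 33.1% were above in both and 32.6% below in both. Of the replication-dependent members 9 of 35 were below in both and 7 above in both. SLBP stood at -0.92 and -0.53, and NPAT was split, at -0.38 and 0.99. The list medians of 3′ processing, transcription, translation and decay, and chaperones were -0.12, -0.34, -0.075 and -0.036.

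**Figure D5:**
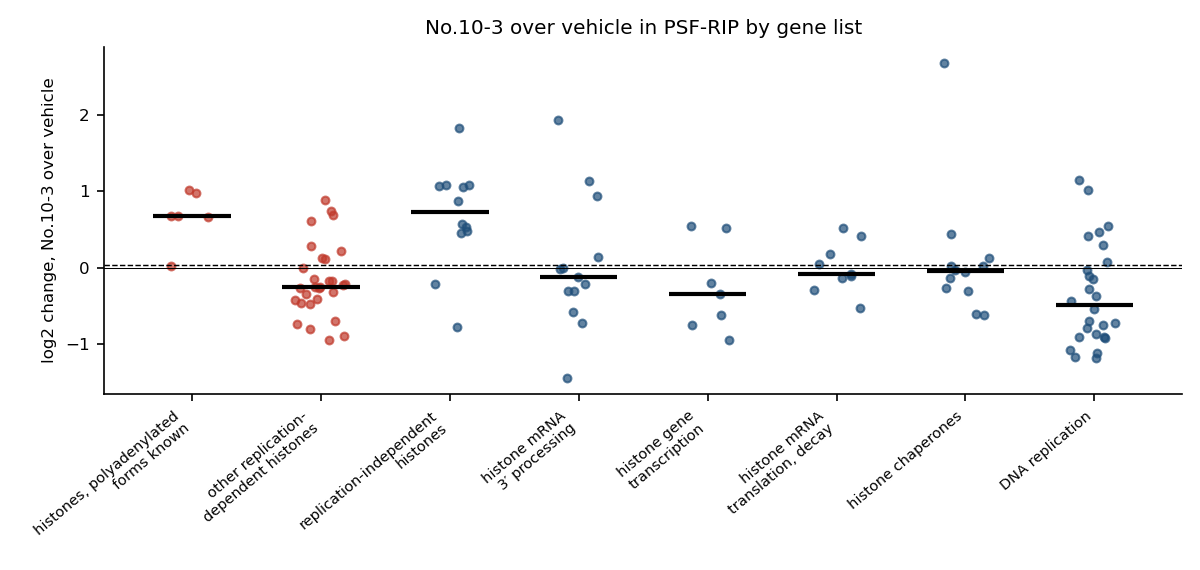
Fitted log2 change of No.10-3 (2 libraries) over vehicle (1 library) in PSF-RIP for single genes, by list, with each list's median as a bar and the median of all genes (0.036) dashed. The 6 histone genes of known polyadenylated forms (median 0.67) and the replication-independent histones (0.72) lie above the other replication-dependent members (-0.26) and the DNA replication mRNAs (-0.48); no gene passed the test.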

How the data were processed

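The authors deposited 1 table of whole-number read counts per Entrez gene for 5 libraries, with gene lengths in bases, per the file headers; the counts were taken as raw. Per the submitters' processing notes, which give no roles, the tools were TopHat2 2.1.0, Bowtie2 2.2.6 and Bowtie, and the build was hg19. Libraries were made with a stranded kit after RIP with a commercial kit, per the labels' protocols. The counting tool, its strand setting and its gene models are not stated in the labels. Columns named for No.10-3 carry neither PSF nor RIP in their names and were taken as the PSF-RIP libraries because the other columns without PSF are named input. Coordinates and promoters are RefSeq's (GRCh38.p14), and 23696 of the table's genes matched that table by Entrez ID.

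Genes whose mean over the libraries of a fit reached 1 CPM were tested with edgeR 4.0.16 (R 4.3.3; TMM, glmQLFit and glmQLFTest, Benjamini-Hochberg over all genes tested, threshold 0.05). PSF-RIP over input used all 5 libraries (3 against 2, 3 residual degrees of freedom). No.10-3 over vehicle used the 3 PSF-RIP libraries. The standard error is the size of the log2 change divided by the square root of the F statistic. Differences of single libraries used a prior count of 2. A share of counts has an exact binomial 95% interval. No p is given for sums over members. The fits were also run on simulated data, and that run is not used as support for any result here.

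Members given by library were the 2 most abundant of each class, those called over input, and the 3 highest and 3 lowest with No.10-3 by the smaller of the 2 differences, plus the most abundant HIST2 gene. The members, lists and rules were chosen with earlier results of these data known. Alternatives were DESeq2 1.42.0, upper-quartile and other scaling, other filters, a length correction, other groupings and each library left out. No 2 libraries agreed within sampling noise, so each counts as 1 sample.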

Additional observations from a re-analysis of the deposited data

How the results depend on the processing

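No paired analysis was possible because the input columns carry no tie to a PSF-RIP library and vehicle has 1 PSF-RIP library. Library totals and TMM from nuclear protein-coding genes were added after the data were seen. Upper-quartile factors and the removal of the filter changed no count of calls by over 1.5 times. Low counts limit single members: the median tested member had 15 to 29 counts a library.

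For PSF-RIP over input, DESeq2 called 1 member lower and the 3-group fit 5, and No.10-3 PSF-RIP alone gave 663 genes higher, 866 lower and 0 members lower. Removing the length trend gave 1 member higher, 1 lower and a median of -0.081, and turned H2AC6 to 0.28, H3C6 to 0.37, H4C5 to 0.045, H2BC5 to 0.095, H2BC8 to 0.25 and H2BC15 to 0.42; with No.10-3 over vehicle it turned H4C5 to 0.017 and H4C8 to 0.0028. Library totals gave 11613 genes higher and 49 lower, 30 members higher and 0 lower, and turned the median to 1.52, the polyadenylated list's to 1.74, H2AC6 to 1.84, H2AC20 to 1.36, H2BC21 to 1.52, H2BC12 to 1.63, H3C6 to 1.77, H3C10 to 1.07, H4C5 to 1.49, H4C8 to 1.33, H2BC7 to 0.69, H2AC15 to 0.94, H2BC4 to 1.02, H2BC5 to 2.06, H2BC8 to 1.65, H2BC15 to 1.88 and H4C2 to 1.28. H1-2 turned to -0.012 with a minimum of 5 CPM, -0.085 in the 3-group fit, -0.42 with vehicle PSF-RIP alone (where H2BC15 turned to 0.020) and -0.0041 with protein-coding TMM. Nuclear protein-coding counts as the denominator turned the share's difference to -0.0605 percentage points. The causes of these shifts were not tested.

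Leaving out 1 library at a time, 87 to 2360 genes were higher and 515 to 2440 lower over input, and 0 to 4 members were lower (0 without input library 2 or the vehicle library). The median ran from -1.06 to -0.37 and the polyadenylated list's from -1.14 to 0.17. For single members over input the ranges that crossed 0 were -0.28 to 0.49 for H1-2, -1.15 to 0.59 for H2AC6, -1.64 to 0.18 for H2AC20, -1.07 to 0.019 for H3C6, -0.82 to 0.52 for H2BC5, -1.36 to 0.32 for H2BC8, -0.80 to 0.10 for H2BC15 and -0.31 to 5.56 for H2AC14, the last without input library 1, where its input counts are 0 and the upper value is no measured fold. With 1 No.10-3 library left out, the median over vehicle ran from -0.46 to 0.26, and the ranges that crossed 0 were -0.086 to 1.18 for H2AC6, -1.54 to 0.43 for H2AC20, -0.11 to 0.42 for H3C6, -0.81 to 0.34 for H4C5, -0.53 to 0.0034 for H4C8, -0.21 to 1.17 for H2BC7 and -0.58 to 0.51 for H2BC4.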

Other observations

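The histone genes of the HIST3 and HIST4 loci were in none of the comparisons above. H2AW, an H2A gene, had 20 and 15 counts in the No.10-3 PSF-RIP libraries and 14 in the vehicle PSF-RIP library, against 6 and 10 in the inputs. H2BU1 had 5 and 8 with No.10-3 and 4 with vehicle, against 0 and 4 in the inputs, and H4-16 had 5 and 2 with No.10-3 and 8 with vehicle, against 5 and 0 in the inputs. H3-4, the testis H3 gene, had none in any library. The pseudogene H2BC20P had 3 and 6 counts with No.10-3 and 7 with vehicle, against 0 and 3 in the inputs.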
